A study of Mus musculus with 208 samples.

Results

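The Mir344 family is a set of closely related microRNA genes that lie side by side on mouse chromosome 7. Small RNA was sequenced from the striatum, in an allelic series of Huntington's disease model mice. Members were taken by position, as the features with a Mir344 name from the family's list that lie in a fixed window of chromosome 7 (GRCm38). This gave 8 members of the 1626 features in the count table: Mir344d-1, Mir344d-3, Mir344e, Mir344b, Mir344c, Mir344, Mir344g and Mir344f. The list held 10 names, of which Mir344i lies beyond the end of the window and Mir344d-2 was not analysed here. The family was picked because its levels fell with CAG length at 6 and 10 months (6m, 10m), so those slopes, and the lines compared with the same controls at those ages, are descriptions and support nothing. Members were described singly where their mean count was at least 10, and otherwise in the sum of the 8 members. The least abundant member above that minimum was Mir344f, with a mean of 12.3 counts per library, and the most abundant one below it was Mir344e, with 4.79.

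The mice were C57BL/6 heterozygotes that kept 1 mouse Htt allele and had exon 1 of human HTT knocked in to the other, with 20, 80, 92, 111, 140 or 175 CAG repeats by line (named Q20 up to Q175), and wild-type (WT) littermates without an engineered allele, which the labels place in the cages of a given line. All mice thus shared at least 1 intact mouse Htt allele. Each line is a single engineered allele, and Q175 arose by spontaneous expansion of the repeat in the Q140 line. WT littermates of the Q20 line were sequenced at 2m, 6m and 10m, and those of the other 5 lines at 6m. There were 26 groups of 8 libraries, 208 in all, each from a different mouse, and by label all groups held 4 females and 4 males except Q20 at 10m (5 and 3) and Q80 at 2m (3 and 5). In each of these 2 groups, 1 library (Q20 F3 and Q80 M1) carries in its name a cage number that otherwise belongs to mice of the other sex. The sex labels were used as given, and the part of these libraries in the tests of sex was not tested. Total counts ran from 2755347 to 7965446 per library, with medians of 5623769 at 2m, 4553873 at 6m and 4212050 at 10m. In the tests, 4 libraries were left out that stood apart in their connectivity, a measure from their distances to the other libraries of their age. They were 1 each of Q80 at 2m, Q80 at 6m, WT of the Q80 line at 6m and WT of the Q20 line at 10m, and 204 libraries were used. Among microRNAs that mark cell types, the neuron list (Mir124a, Mir9, Mir138 and Mir128 genes) had no gene at 0 in any group, and summed to between 61398.9 and 94317 CPM (counts scaled to a common library size) per library. The liver microRNA Mir122 had group medians of 9.37 CPM or less. Its highest values were 25.8 CPM in Q80, 23 CPM in Q20, 22.6 CPM in WT and 15.7 CPM in Q140 at 10m, and 14.9 CPM in WT littermates of the Q92 line and 11.8 CPM in Q92 at 6m, with 7.88 CPM or less in every other group. Its part in the members' levels was not tested. No list used here marks striatal projection neurons in particular.

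MicroRNAs are short RNAs cut from hairpin precursors, which give a 5p and a 3p strand. A loaded strand guides an Argonaute protein to messenger RNAs, mainly by pairing of its seed, the bases near its 5′ end, and lowers their translation and stability. The Mir344 hairpins lie in the imprinted region that corresponds to the human Prader-Willi and Angelman syndrome region, where several genes, such as Snrpn, Ndn and Magel2, are expressed from the paternal chromosome in brain.

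The mature sequences of the more abundant hairpins, and of 2 that share a 3p seed with them, are shown because most members have a common seed on the 5p arm while the 3p arms fall into several seed groups. Sequences are from RefSeq (GRCm38.p6), written 5′ to 3′, with the seed (bases 2 to 8) in capitals.
miR-344d-1-5p: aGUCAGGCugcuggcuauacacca
miR-344b-5p: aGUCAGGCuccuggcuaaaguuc
miR-344c-5p: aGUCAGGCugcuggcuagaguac
miR-344-5p: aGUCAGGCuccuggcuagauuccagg
miR-344f-5p: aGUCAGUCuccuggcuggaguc
miR-344d-3p: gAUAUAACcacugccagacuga
miR-344e-3p: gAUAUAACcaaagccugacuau
miR-344b-3p: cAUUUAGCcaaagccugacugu
miR-344c-3p: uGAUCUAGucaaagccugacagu
miR-344-3p: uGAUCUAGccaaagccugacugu
miR-344f-3p: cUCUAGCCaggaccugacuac

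The 5p seed GUCAGGC was held by 6 of the 8 member hairpins (Mir344d-1, Mir344d-3, Mir344b, Mir344c, Mir344 and Mir344g) and by 0 RefSeq mouse microRNAs outside the family. On the 3p arm, Mir344d-1, Mir344d-3 and Mir344e had the seed AUAUAAC, which they share with miR-410-3p, the product of an imprinted cluster on chromosome 12. Mir344c and Mir344 shared GAUCUAG, and the 3p seeds of Mir344b, Mir344g and Mir344f each differed from those of the other members. The 3p sequence printed for Mir344d-1 is identical in Mir344d-2 and Mir344d-3. Reads were counted per hairpin, so the arms cannot be told apart in these data, and a change of a hairpin's count may be of either seed.

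All 8 members lay on the minus strand, within 363125 bases (GRCm38 chr7:61683124-62046248). Mir344d-1 (chr7:61683124-61683192) and Mir344f (chr7:62046181-62046248) stood at the outer ends, between annotated genes. Mir344d-3, Mir344e, Mir344b (chr7:61790519-61790581), Mir344c (chr7:61837311-61837402) and Mir344 lay in introns of the non-coding gene A230057D06Rik, and Mir344g lay in an exon of A330076H08Rik. Snrpn and Ube3a lie at lower coordinates than the family on this chromosome, and Ndn, Magel2 and Mkrn3 at higher ones. A further hairpin, Mir344-2 (chr7:61940027-61940106, intron of A330076H08Rik), lies among them but was not on the family's list. It is given beside the members, because both of its mature sequences are identical to those of Mir344. Gm23873 (chr7:61750468-61750537), a hairpin in an intron of A230057D06Rik that has only a Gm identifier, holds the same run of 5p seed bases and is 78.6% identical to the Mir344d-1 hairpin.

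Mir344d-1 and Mir344b together carried nearly all the counts of the family. Mir344d-1 had a mean of 2173 counts per library and 62.3% of the members' counts, Mir344b had 1171 counts and 33.6%, and Mir344c had 119 counts and 3.41%. The family was a small part of the striatal microRNA pool, with 0.0718% of all counts and between 1833 and 7409 summed counts in a library. Per hairpin length, the median FPKM was 6281 for Mir344d-1, 4262 for Mir344-2, 3757 for Mir344b, 235.9 for Mir344c and 31.9 for Mir344f. Mir344e, Mir344g, Mir344d-3 and Mir344 were near the limit of detection. Mir344d-3 was at 0 in 172 of the 208 libraries and Mir344 in 176, and the deposited counts of both were fractional wherever they were above 0. Fractional values were also the rule for Mir344d-1 (208 of 208 libraries), Mir344-2 (192), Mir344b (173) and Mir344c (123). Since near-identical hairpins can share reads, the split between them, above all between Mir344 and Mir344-2, is uncertain.

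**Figure D1:**
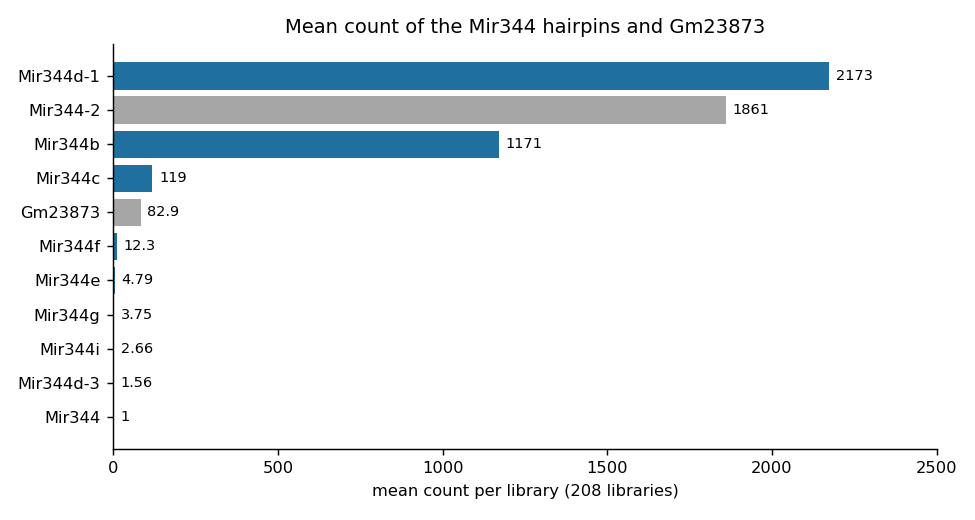
Mean count per library (horizontal axis, 208 libraries) of each Mir344 hairpin and of Gm23873, with members as blue bars and other hairpins as grey bars. Mir344d-1 (2173), Mir344-2 (1861) and Mir344b (1171) stand far above the rest, and Mir344e, Mir344g, Mir344i, Mir344d-3 and Mir344 lie below 10.

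At 6m, each line was compared with WT littermates of its own line. Mir344b, Mir344d-1 and Mir344c fell in Q140 and Q175, and Mir344b also in Q111, while Mir344f and Mir344e did not pass the test in any line. This comparison uses the same heterozygous libraries as the slope by which the family was picked, and for Q20 also the same WT libraries, so it is not independent evidence of the direction. In bulk striatum, fewer cells of a type and less RNA per cell cannot be told apart. Of the 8 members, 5 passed the filter on low counts (Mir344d-1, Mir344b, Mir344c, Mir344f and Mir344e).

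Mir344b, whose 3p seed is its own within the family, had the clearest separation. In Q175 its level was lowest at 135.8 CPM, with a median of 144.2 and a highest value of 160.3, and in WT littermates it ran from 227.3 over a median of 244.8 to 268.9. In Q140 it ran from 147.3 over 164.6 to 199.5 CPM, and in WT littermates from 243.4 over 277.1 to 321.3. In Q111 it ran from 181.8 over 191.3 to 210.0 CPM, against 222.3, 244.6 and 282.0 in WT littermates. In each of these lines all 8 heterozygotes lay below every WT littermate. How many of all tested microRNAs were separated in this way was not counted, for this or any other member. The log2 change of Mir344b was -0.68 in Q175 (SE 0.05, FDR 7.65e-19, edgeR quasi-likelihood test with Benjamini-Hochberg adjustment), which is -37.7%. It was -0.66 in Q140 (SE 0.05, FDR 1.23e-17) and -0.37 in Q111 (SE 0.05, FDR 5.18e-07).

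Mir344d-1, the most abundant member, did not overlap with WT littermates in Q140 and Q175. In Q175 it ran from 332.6 over a median of 375.7 to 413.8 CPM, against 469.6, 541.2 and 575.9 in WT littermates. In Q140 it ran from 423 over 438.7 to 489.5 CPM, against 547.2, 639.5 and 723.5. In Q111 the groups overlapped, with 400.6, 506.8 and 620.6 CPM against 487.1, 557.8 and 668.1. Its log2 change was -0.44 in Q175 (SE 0.07, FDR 7.75e-07), -0.48 in Q140 (SE 0.07, FDR 1.57e-07) and -0.15 in Q111 (SE 0.07, FDR 0.3), the last of which did not pass the threshold of 0.05.

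Mir344c, whose 3p seed is that of Mir344, showed the same separation at a much lower level. In Q175 it ran from 13.1 over a median of 14.9 to 16.6 CPM, against 17.6, 20.7 and 24.6 in WT littermates. In Q140 it ran from 11.4 over 13.8 to 18.9 CPM, against 20.3, 22.9 and 26.4, again with no overlap. The log2 change was -0.43 in Q175 (SE 0.09, FDR 0.000112), -0.64 in Q140 (SE 0.09, FDR 2.79e-08) and -0.18 in Q111 (SE 0.09, FDR 0.322). For Mir344f, whose 5p seed GUCAGUC differs from the shared one, the groups overlapped. Its median was 2.09 CPM in Q175 and 1.55 CPM in WT littermates, with ranges of 1.56 to 3.38 and 0.447 to 2.72 CPM. Its log2 change was 0.55 (SE 0.33, FDR 0.266) in Q175, 0.26 (SE 0.33, FDR 0.796) in Q140 and -0.46 (SE 0.33, FDR 0.555) in Q111, with intervals of -0.11 to 1.20, -0.38 to 0.89 and -1.12 to 0.19. Mir344e had log2 changes of 0.29 in Q175 (SE 0.41, FDR 0.698) and 0.26 in Q140 (SE 0.41, FDR 0.86), with intervals of -0.51 to 1.09 and -0.55 to 1.07.

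Counted over these 5 members, 1 was lower in Q111, where 2.52% of the 477 microRNAs tested were lower. In Q140 3 were lower (7.34% of those tested), and in Q175 3 (13.6%). The heterozygotes of all lines entered the slope by which the family was picked, so nothing is read from the counts of this comparison. In Q20, Q80 and Q92, 0 members were lower, as against 0.629%, 0.629% and 0.629% of those tested. At an unadjusted p under 0.05, 0 were lower, and Mir344b was higher in Q20 (edgeR quasi-likelihood test, unadjusted p = 0.0186). In those 3 lines, Mir344b had log2 changes of 0.13 (SE 0.05, FDR 0.808), 0.01 (SE 0.06, FDR 0.973) and -0.09 (SE 0.05, FDR 0.718), and Mir344d-1 of 0.08, -0.03 and 0.03. In Q92 the spread of Mir344d-1 was wide, with an SD of 139.3 CPM against 58.2 in its WT littermates, because the 6m heterozygotes F2 (422.6 CPM) and M1 (479.3 CPM) lay below the other 6, which were at 657.2 CPM or more.

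The sum of the 8 members, which is not affected by reads shared among them, was 492.0 CPM at the lowest, 539.2 at the median and 593.3 at the highest in Q175, and 744.9, 796.7 and 869.7 in WT littermates. In Q140 it was 587.9, 632.5 and 710.6 CPM, against 816.1, 936.0 and 1073.5 in WT littermates. The groups did not overlap in these lines, and they did in Q111. The sum changed by -0.51 (SE 0.06, FDR 2.8e-11) in Q175, -0.54 (SE 0.06, FDR 6.55e-12) in Q140 and -0.21 (SE 0.06, FDR 0.0174) in Q111 on the log2 scale. The Q111 value lost its call when any of 3 single libraries was left out (FDR 0.057 without Q111 F3, 0.0625 without WT F1 and 0.0635 without WT M3). It was 0.09 in Q20 (FDR 0.985), -0.01 in Q80 (FDR 0.984) and -0.01 in Q92 (FDR 0.948). Among the libraries whose names carry the tag V, taken as a batch, it was -0.49, -0.54 and -0.22 in Q175, Q140 and Q111.

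**Figure D2:**
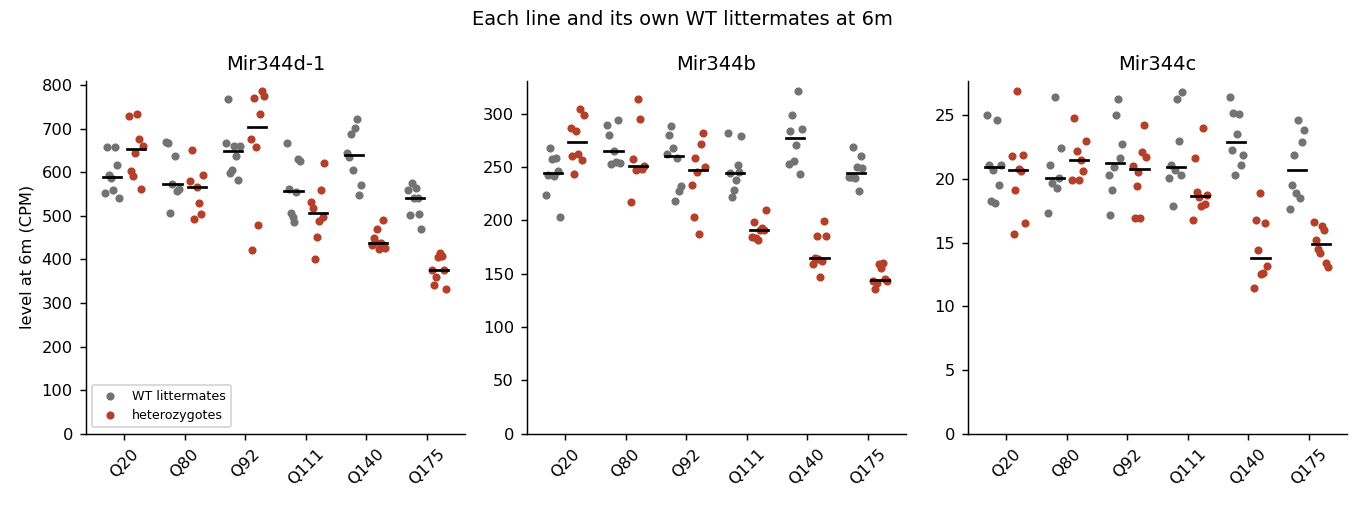
Level at 6m (vertical axes, CPM) of Mir344d-1, Mir344b and Mir344c in heterozygotes (red points) and WT littermates (grey points) of each of the 6 lines, 1 point per library, with black lines at group medians. For Mir344b all 8 heterozygotes of Q111, Q140 and Q175 lie below every WT littermate of their line, and for Mir344d-1 and Mir344c this holds in Q140 and Q175.

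The hairpins beside the members differed in size of change. Mir344-2 had log2 changes of -0.29 (SE 0.05, FDR 3.48e-07) in Q175, -0.22 (SE 0.05, FDR 0.000153) in Q140 and -0.11 (SE 0.05, FDR 0.17) in Q111. Its levels overlapped between heterozygotes and WT littermates, at 254.9 to 303.4 CPM against 296.1 to 395.4 CPM for Q175. Gm23873 had the values -1 (SE 0.18, FDR 2.31e-06), -0.82 (SE 0.17, FDR 7.54e-05) and -0.65 (SE 0.17, FDR 0.00991) in the same 3 lines. With Mir344-2 and the other features of a Mir344 name added, which makes 12, the sum changed by -0.44 in Q175, -0.45 in Q140 and -0.20 in Q111.

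Markers of cell types were read in the same comparisons. Of the 9 tested neuron microRNAs, 4 were lower in Q175 than in WT littermates (Mir128-1, Mir124a-1, Mir128-2 and Mir138-1), 0 in Q140 and 0 in Q111, with list medians of -0.12, 0.00 and -0.06 on the log2 scale. The summed level of the list was 62524.8 to 75798.9 CPM in Q175 and 71193.1 to 77943 CPM in its WT littermates, and 66985.7 to 84517.2 CPM in Q140 and 74271.4 to 84172.1 CPM in its WT littermates. The summed microglia and leukocyte list was 478.6 to 700.9 CPM in Q175 and 485.1 to 629.1 CPM in its WT littermates. Of the 3 oligodendrocyte, 3 microglia, 1 endothelial, 2 erythroid and 1 liver microRNAs tested, 0 passed the FDR threshold in Q175, Q140 or Q111. Of the 5 choroid plexus and ependyma microRNAs tested, Mir34c rose (0.49, SE 0.16, FDR 0.018) and Mir449a fell (-0.53, SE 0.12, FDR 0.000155) in Q175, and of the 4 muscle microRNAs, Mir206 fell in Q175 (-1.39, SE 0.24, FDR 2.25e-06) and Q140 (-1.14, SE 0.24, FDR 0.000117). The part of cell composition in the members' decrease was not tested.

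The WT littermates of the 6 lines, which carry no engineered allele, give the background between colonies and library sets at 6m, and the family was not picked on that difference. A joint test over the 6 WT groups called 1 of the 5 members, where 27.3% of the 477 microRNAs tested were called. The member was Mir344d-1 (FDR 0.0477), whose medians were 541.2 CPM in WT of the Q175 line, 557.8 in Q111, 574.0 in Q80, 589.7 in Q20, 639.5 in Q140 and 648.8 in Q92. Neighbours in that order overlapped in their ranges, but the 2 ends did not. The range was 469.6 to 575.9 CPM in WT of the Q175 line and 583.3 to 767.9 CPM in WT of the Q92 line. With only the tag V libraries, the FDR was 0.231. The FDR was 0.268 for Mir344b, 0.827 for Mir344c, 0.903 for Mir344f, 0.626 for Mir344e and 0.946 for Mir344-2. For the member sum it was 0.0727, and the sum was called by DESeq2 (FDR 0.00833) and with sets of library numbers as a covariate (FDR 0.0215).

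At 2m, in other animals than those by which the family was picked, the levels of heterozygous lines lay close to those of the controls. Mir344b ran from 194.6 over a median of 253.6 to 264.3 CPM in Q175, from 233.3 over 265.8 to 279.9 CPM in Q140, and from 247.1 over 281.6 to 322.1 CPM in the 16 controls (Q20 and WT of the Q20 line). Mir344d-1 had medians of 387.5 CPM in Q175, 379.1 CPM in Q140 and 394.2 CPM in the controls. All of these groups overlapped. For Mir344b all 8 libraries of Q140 and all 8 of Q175 lay below the control median, and for Mir344d-1 6 of 8 and 5 of 8 did. The slope on CAG length, as log2 change per 100 repeats with WT at 7 repeats, was -0.12 for Mir344b (SE 0.03, FDR 0.159), -0.04 for Mir344d-1 (SE 0.03, FDR 0.817), -0.04 for Mir344c (SE 0.04, FDR 0.927) and -0.10 for Mir344f (SE 0.10, FDR 0.909). The member sum had a slope of -0.07 (SE 0.03, FDR 0.41), with an interval of -0.12 to -0.02. None of the 477 tested microRNAs was called for the slope at this age (0%) by the edgeR quasi-likelihood test or by DESeq2, and 36 had an unadjusted p under 0.05. Of the 5 members, 0 were called. Against the controls, Mir344b in Q175 had a log2 change of -0.22 (SE 0.06, FDR 0.082), and the member sum one of -0.12 (SE 0.05, FDR 0.63).

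At 6m and 10m the slopes on CAG length are those by which the family was picked, and they are given as values. At 6m, the slope was -0.48 for Mir344b (SE 0.04), -0.39 for Mir344d-1 (SE 0.05), -0.30 for Mir344c (SE 0.05) and -0.41 for the sum (SE 0.04), the last of which is -24.8% per 100 repeats. At 10m it was -0.55 for Mir344b (SE 0.05), -0.39 for Mir344d-1 (SE 0.05), -0.55 for Mir344c (SE 0.08) and -0.45 for the sum (SE 0.04). For Mir344f the slope was 0.33 at 6m (SE 0.16), and it was -0.05 at 10m (SE 0.14). Of the 5 members tested, 3 were lower at 6m, as were 17% of the 477 microRNAs, and 3 at 10m, as were 11.7%, and nothing is read from these counts. Outside the list, Mir344-2 had slopes of -0.21 (SE 0.03) and -0.34 (SE 0.05), and Gm23873 of -0.74 (SE 0.13) and -0.88 (SE 0.11).

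The levels behind these slopes were lower in Q111, Q140 and Q175. At 10m, Mir344b ran from 194.6 over a median of 260.8 to 308.9 CPM in the 15 controls. It ran from 143.6 over 167.4 to 221.3 CPM in Q111, from 143.7 over 161.2 to 164.6 CPM in Q140, and from 126.6 over 150.7 to 176.0 CPM in Q175. The Q140 and Q175 libraries all lay below the lowest control, and the 3 lines overlapped with one another. Mir344d-1 at 10m ran from 338.9 over 403.7 to 483.1 CPM in the controls, and had medians of 301.5 CPM in Q111, 270.6 CPM in Q140 and 251.5 CPM in Q175. The medians of Mir344b in Q80 and Q92 were 243.2 and 228.7 CPM, with ranges of 200.9 to 260.0 and 215.2 to 276.6 CPM that overlapped with the controls. Mir344c overlapped with the controls in both Q140 and Q175. In each of these lines 5 of 8 libraries lay below the lowest control at 6m, and 7 of 8 at 10m.

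**Figure D3:**
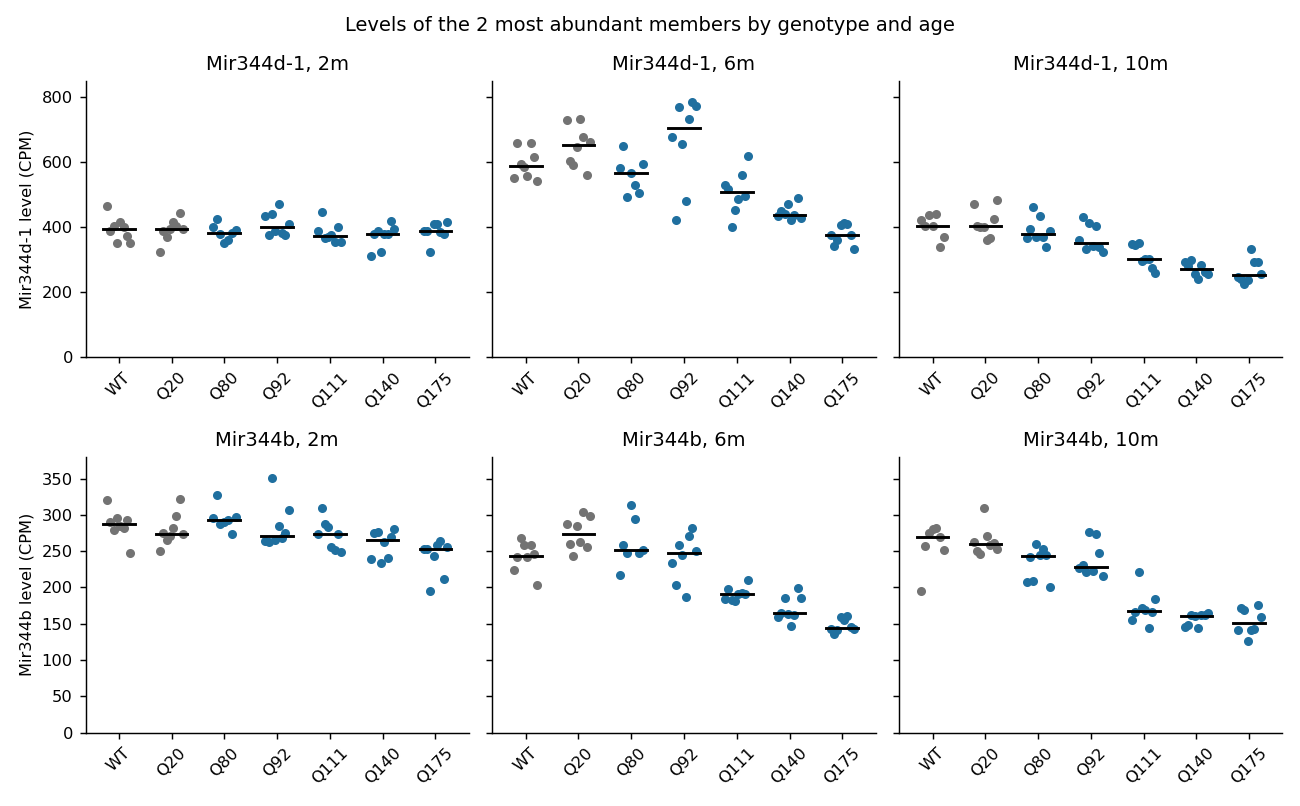
Level (vertical axes, CPM) of Mir344d-1 (upper row) and Mir344b (lower row) in each library at 2m, 6m and 10m by genotype, with WT of the Q20 line and Q20 in grey, the other lines in blue and group medians as black lines. At 2m all lines overlap with the controls, and at 6m and 10m the Q140 and Q175 points lie below every control point.

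Within batches of libraries, the slope of the member sum at 6m was -0.41 in tag V alone (44 libraries) and -0.38 in LB alone (11 libraries). The LB batch pools several tags, each of which held a single line in this fit. Tag and line therefore cannot be told apart within LB. At 10m it was -0.50 in L1 (20 libraries), -0.44 in L4 (24 libraries) and -0.23 in L5 (7 libraries, of which 1 of Q111 was the only one above 80 repeats). At 2m it was -0.09 in L8 (26 libraries), -0.06 in L1 (11 libraries) and -0.05 in L7 (10 libraries). At 6m the library numbers were partly grouped by line. With sets of library numbers as a covariate, the sum changed against own littermates by -0.50 in Q175, -0.56 in Q140 and -0.21 in Q111. With Q175 left out, the slope of the sum was -0.32 at 6m and -0.46 at 10m.

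The difference between the slopes at these ages is also given as values, since both slopes were used in picking the family. The slope at 10m minus that at 6m was -0.04 for the sum (SE 0.07), with an interval of -0.17 to 0.09. It was -0.05 for Mir344d-1 (SE 0.07), -0.13 for Mir344b (SE 0.07), -0.31 for Mir344c (SE 0.09), -0.44 for Mir344f (SE 0.21) and -0.37 for Mir344e (SE 0.25), and outside the list -0.19 for Mir344-2 (SE 0.05).

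**Figure D4:**
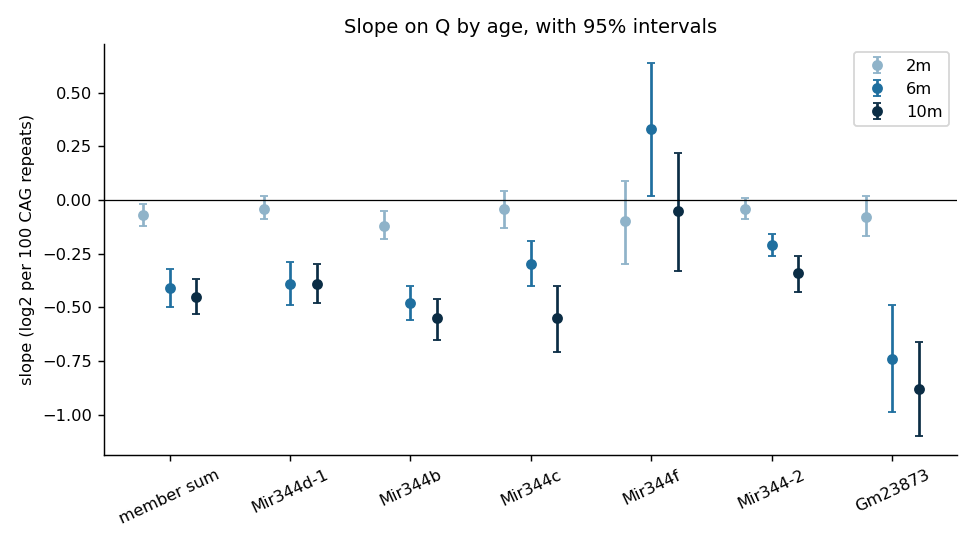
Slope on CAG length (vertical axis, log2 change per 100 repeats) at 2m, 6m and 10m for the member sum, for 4 members and for Mir344-2 and Gm23873, with points at the estimate and bars for the 95% interval. At 2m the estimates lie between -0.12 and -0.04, at 6m and 10m those of Mir344d-1, Mir344b and Mir344c lie between -0.55 and -0.30, and the intervals of Mir344f reach from -0.33 to 0.64.

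Members were also set against the rest of the family within each library, a ratio that does not depend on scaling between libraries. At 2m the ratio of Mir344b to the other members fell by 0.08 log2 units per 100 repeats (SE 0.03, permutation p = 0.00274, adjusted p = 0.00658 over 12 ratios, 55 libraries). That of Mir344d-1 rose by 0.07 (SE 0.02, permutation p = 0.00407, adjusted p = 0.00814). The 12 ratios include those at 6m and 10m, so the adjusted values rest in part on slopes used in picking the family. The results of Mir344b and Mir344d-1 mirror each other, since the pair makes up nearly all the counts. Mir344b took a median of 36.1% of the members' counts in Q175, 39.3% in Q140 and 38.9% in WT of the Q20 line at 2m. The ranges were 33.8% to 38.2%, 36.7% to 41.3% and 38.3% to 43.2%. In Q20, Q80, Q92 and Q111 the medians at 2m were 39.2%, 40.8%, 38.9% and 39.2%. The median was thus lowest in Q175 and did not fall stepwise over the shorter repeats. The ratio slope with Q175 left out was not tested. The ratio slopes of Mir344c (0.02, permutation p = 0.683) and Mir344f (-0.04, permutation p = 0.72) did not pass the test. At 6m and 10m the ratio slopes were -0.09 (SE 0.04) and -0.15 (SE 0.04) for Mir344b, and 0.06 (SE 0.04) and 0.15 (SE 0.04) for Mir344d-1. For Mir344f they were 0.72 (SE 0.18) and 0.42 (SE 0.13). These later ratios are given without p-values because the members' slopes at those ages were used.

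The control groups differed little from each other. Q20 heterozygotes against WT littermates gave log2 changes of the member sum of -0.02 at 2m (SE 0.05, FDR 1), 0.09 at 6m (SE 0.07, FDR 0.981) and 0.03 at 10m (SE 0.06, FDR 0.939). Outside the list, Mir344-2 had a difference of 0.21 at 10m (SE 0.08, FDR 0.661). Between females and males the sum differed by -0.02 at 2m (SE 0.03, FDR 0.891), -0.04 at 6m (SE 0.05, FDR 0.865) and 0.01 at 10m (SE 0.04, FDR 0.986). The slope on CAG length differed between the sexes by 0.01 (SE 0.05, FDR 0.996), -0.04 (SE 0.09, FDR 0.991) and -0.02 (SE 0.08, FDR 0.982) at the same ages.

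Across ages the controls differed in level, but each age was a different set of mice and, for the most part, of library batches, so that age and batch cannot be told apart. Mir344d-1 had control medians of 394.2 CPM at 2m, 609.6 at 6m and 403.7 at 10m, and its 6m range of 541.5 to 732.8 CPM lay above the ranges at both other ages. Mir344b had 281.6, 258.0 and 260.8 CPM, with overlapping ranges. Mir344c had 32.6, 20.7 and 27.2 CPM. Mir344f had 4.12, 1.51 and 1.81 CPM, and Mir344g had 1.27, 0.673 and 0.391 CPM.

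The microRNAs with the pattern most like the member sum over the 26 group means were Mir206 (Pearson r 0.953), Mir148a (0.937) and Gm23873 (0.937). These points share scaling and, at each age, library batches. Over the 204 libraries, with group and batch means taken out, the highest were Gm24321 (0.65), Mir411 (0.636) and Mir300 (0.591), all on chromosome 12. There, Mir206 had r 0.041, Mir148a 0.496 and Gm23873 0.379 with the member sum. In the same within-group measure Mir344d-1 and Mir344b had r 0.56, Mir344d-1 and Mir344c 0.228, and Mir344b and Mir344-2 0.454, while Mir344f stood between -0.0413 and 0.0233 with every other hairpin compared. All of these are descriptions over libraries that share depth and processing.

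Other imprinted microRNAs and the microRNA with a shared seed were read for comparison. The Dlk1-Dio3 cluster on chromosome 12 has 56 features in the table, of which 48 were tested. In the Q175 comparison with own littermates 10 of these rose and 6 fell, where 57 and 65 of all 477 did, with a median of 0.03 on the log2 scale, and the median over all tested microRNAs was 0.03. In Q140, 6 rose and 3 fell, where 41 and 35 of the 477 did, and in Q111, 2 rose and 0 fell, where 10 and 12 did. Mir410, of that cluster, whose 3p product has the seed of miR-344d-3p, had a log2 change of 0.14 in Q175 (SE 0.06, FDR 0.0547), with 0.04 in Q140 (SE 0.06, FDR 0.813) and 0.11 in Q111 (SE 0.06, FDR 0.306). The nearest other tested microRNA of the chromosome 7 region, Mir211 in an intron of Trpm1, was not called in these comparisons.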

How the data were processed

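Small RNA from the striatum of 208 mice was sequenced by the authors as strand-specific single-end reads. Base calling used CASAVA 1.8.2 per the submitters' processing notes, and clipped reads were aligned to mouse mm10 with STAR and counted per hairpin with HTSeq. The deposited values are expected counts, many of them fractional, and the origin of the fractions is not given in the sources used here. The deposited FPKM values equal these counts scaled for depth and length, and were used for levels between hairpins only.

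Here, feature IDs were named by GENCODE M21 (1228 of 1626 matched). Counts were rounded and fitted with edgeR 4.0.16 (R 4.3.3, quasi-likelihood F-test, TMM scaling, filterByExpr, sex and batch as covariates). The filter left 477 microRNAs, with Benjamini-Hochberg adjustment over all of them (FDR under 0.05). The batch was taken from the tag, a part of the library name, and the labels do not say what it marks. Some tags were pooled. At 6m, all tags other than V made up the batch LB. At 2m and 10m, tags held by few libraries were put in a joint batch (8 and 4 libraries). Differences between pooled tags were not adjusted for. WT was given 7 repeats. Libraries with a standardised connectivity below -5 (4) were left out, except in 1 alternative. CPM values use TMM-scaled totals. In the table for the member sum, 473 features were tested. Ratios within the family used a permutation test with 100000 resamples, two-sided, within batch. The tests judge differences against the spread between mice of these groups. Each CAG length was a single line, so the p-values of slopes do not cover variation between lines.

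The members, gene lists and tests were chosen with earlier results of these data known. Named were the listed Mir344 features, other Mir344 features with their counts, tested microRNAs of the surrounding region of chromosome 7, the microRNAs most like the member sum, and members of the cell type and Dlk1-Dio3 lists when counted. Gm23873 was named as a part of that region. Alternatives were RLE and total-count scaling, other low-count filters, DESeq2 1.42.0, other covariates, all libraries kept, single batches, lines or WT left out, and each library left out.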

Additional observations from a re-analysis of the deposited data

Results flagged for a closer look

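Within groups of 7 or 8 libraries, single libraries whose gap to the nearest other library took an unusually large share of the group's range were sought for Mir344d-1, Mir344b, Mir344c, Mir344f and the member sum. Of 130 groups tested, 6 held such a library, and chance gives about 1 in 20. Mir344d-1 was 323.1 CPM in Q175 F3 at 2m, where the other libraries lay between 378.9 and 415.2 CPM, and 767.9 CPM in F2 of the WT littermates of Q92 at 6m, where the others lay between 583.3 and 667.1 CPM. Mir344b was 308.9 CPM in Q20 F4 at 10m (others 246.3 to 270.4 CPM), 327.1 CPM in Q80 F2 at 2m (others 274.2 to 296.4 CPM) and 194.6 CPM in WT F1 of the Q20 line at 10m (others 251.9 to 281.5 CPM). Mir344f was 6.55 CPM in Q140 M3 at 2m, where the others lay between 2.62 and 4.2 CPM.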

How the results depend on the processing

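Of 1113 values recomputed under alternatives, 1081 kept their direction and their side of the threshold, or stayed within 1.5 times for counts. The member sum in Q111 against own littermates lost its call with no low-count filter (-0.21, FDR 0.0601), and with single libraries left out it ran from -0.25 to -0.19; the ranges were -0.57 to -0.52 in Q140 and -0.54 to -0.49 in Q175. Between WT lines, the member sum was called by DESeq2 (FDR 0.00833) and with sets of library numbers as a covariate (FDR 0.0215), and 0 members were called in tag V libraries only. In the 7 libraries of batch L5 at 10m the slope of the sum was -0.23 (FDR 0.862), and 0 members were called there, with 1 library above 80 repeats. The cause of the other changes was not tested. The 16 values that changed sign belong to results that were not called. Mir344b in Q80 was -0.0044 with RLE size factors, -0.01 with total-count scaling, -0.02 with a mean of at least 50 counts, -0.00439 by DESeq2, -0.000244 with all libraries kept and -0.00138 in tag V only. With sets of library numbers, Mir344d-1 in Q80 was 0.01 and the member sum 0.02. The sex difference of the sum at 10m was -0.0037 over 12 features and -0.01 with total-count scaling, sex by CAG length at 2m was -0.02 with no batch covariate, and the 2m slope of Mir344c was 0.07 in batch L1 alone. Mir344f in Q80 was 0.06 with sets of library numbers, and its 10m slope was 0.04 with no batch covariate, 0.07 with Q175 left out and 0.67 in batch L5 alone. The sum over 12 features was chosen after seeing the data.

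The replicate numbers were not taken to pair the libraries in the main tests. Of 46 same-numbered pairs, 15 correlated above 0.1 in their deviations (median 0.0614, range -0.202 to 0.26). Such weak correlations cannot settle whether the numbers mark pairs. With the replicate block, the sum was -0.21 (FDR 0.0196), -0.54 and -0.51 in Q111, Q140 and Q175, and its slopes were -0.06, -0.41 and -0.45 at 2m, 6m and 10m; no call changed. Counts of Mir344d-3, Mir344e, Mir344 and Mir344g were low, as were those of Mir344f, whose intervals were wide. The parts of depth and of shared reads in these low counts were not tested.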

Other observations

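Values of hairpins with a Mir344 name that are no members were low apart from Mir344-2. Mir344i had a mean of 2.66 counts per library and was at 0 in 30 of 208 libraries. Mir344h-1 and Mir344h-2, whose mature sequences are identical, had the same mean of 0.516 counts each and the same number of libraries at 0, 91.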
